A study of Mus musculus with 14 samples.

Results

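VEGF and angiopoietin signalling was described here through 10 mouse genes, 2 VEGF ligands (Vegfa, Vegfb), 2 VEGF receptors (Kdr, Flt1), 2 neuropilin co-receptors (Nrp1, Nrp2), 2 Tie receptors (Tek, Tie1) and 2 angiopoietins (Angpt1, Angpt2). The genes were selected by symbol, and all 10 were found among the 33006 gene rows of a count table of sorted oligodendrocytes and among the 20855 genes shared by 8 single-cell matrices of the nucleus accumbens, a forebrain region of the reward circuit. All mice were male C57BL/6 animals with no genetic change named in the labels, and all received an intraperitoneal injection, of saline in the mock group and of morphine sulfate in the morphine group. Dose and time after injection are not in the labels. Each of 4 mock and 4 morphine accumbens samples pooled 2 mice, dissociated with papain and profiled by Drop-seq, in which each molecule carries a unique molecular identifier (UMI). Pools 1 and 2 of each group held mice of 37 to 45 days and pools 3 and 4 mice of 78 to 82 days. The oligodendrocytes, the myelin-forming cells, came from whole brains of 70-day-old mice by immunostaining and cell sorting, 3 mock and 3 morphine, and their total RNA was amplified before sequencing.

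VEGF-A and VEGF-B are secreted growth factors. VEGF-A signals mainly through the receptor tyrosine kinase VEGFR2, encoded by Kdr, while VEGFR1, encoded by Flt1, binds both ligands tightly and can act as a decoy, and the neuropilins serve as co-receptors for VEGF and as receptors for semaphorins. Angiopoietin-1, made by cells around the vessel, activates the endothelial receptor Tie2, encoded by Tek, and steadies the vessel wall. Angiopoietin-2 is released by endothelial cells and can block Tie2, and Tie1 is a related receptor that modulates it. In the adult brain the receptors are known from the vessel lining, and VEGF-A mainly from astrocytes and other parenchymal cells.

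The bases just before the transcription start are shown for the 3 members with the smallest adjusted p in the sorted oligodendrocytes, because these genes were lower together there. RefSeq promoters (GRCm38.p6) were found for 8 of the 10 members by symbol. Each run is 250 bases, 5′ to 3′ on the gene's strand, and ends at the base before the start. Capitals mark GCGTG or ACGTG, the core letters of the hypoxia response element, on either strand.
Vegfa: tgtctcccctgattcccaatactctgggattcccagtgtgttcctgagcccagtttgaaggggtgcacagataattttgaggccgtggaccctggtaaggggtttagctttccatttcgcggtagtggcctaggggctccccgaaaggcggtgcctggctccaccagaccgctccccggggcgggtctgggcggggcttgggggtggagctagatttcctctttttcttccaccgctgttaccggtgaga
Kdr: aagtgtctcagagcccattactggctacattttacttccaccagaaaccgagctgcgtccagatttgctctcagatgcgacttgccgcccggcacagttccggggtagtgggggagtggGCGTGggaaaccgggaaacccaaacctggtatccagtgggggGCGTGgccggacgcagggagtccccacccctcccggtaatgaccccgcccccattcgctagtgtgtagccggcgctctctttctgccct
Flt1: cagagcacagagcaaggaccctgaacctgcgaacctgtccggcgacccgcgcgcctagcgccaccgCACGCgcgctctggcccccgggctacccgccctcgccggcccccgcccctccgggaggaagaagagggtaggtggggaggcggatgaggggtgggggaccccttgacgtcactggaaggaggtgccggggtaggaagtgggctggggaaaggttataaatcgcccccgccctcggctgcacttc
The Vegfa run lies at chr17:46032378-46032627 on the minus strand, the Kdr run at chr5:75978456-75978705 on the minus strand and the Flt1 run at chr5:147726012-147726261 on the minus strand. Kdr held 2 GCGTG matches and Flt1 held 1, while the Vegfa window held neither core. A further RefSeq window of Vegfa, not printed, held 1 match of each. It lies at chr17:46025164-46025413, inside the GENCODE span of the gene and not before its start. Over all 32851 RefSeq promoters of this length, 28.2% held GCGTG and 16.6% held ACGTG. Of the 9 promoters of the 8 members matched, 6 held GCGTG, among them the Vegfa window inside the gene. The Flt1 window also held 1 TATAAA, which 12.4% of all promoters held, and the Vegfa and Kdr windows held 2 GGGCGG each, which 32.7% held. G and C made up 59.2% of the Vegfa window, 61.6% of the Kdr window and 70.4% of the Flt1 window, against a median of 52.4% over all promoters. A match is a run of letters and no more. Gene positions given below come from the GENCODE annotation of GRCm38, whose gene starts can differ by a few bases from those of RefSeq.

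The sorted libraries held 14989118 to 23456702 reads in named genes, and oligodendrocyte transcripts such as Mbp (mean 3883 counts per 1000000 counts in named genes, or CPM, after saline) were high in every library, as the sort's label says. From the accumbens, 33225 of 36000 barcodes were kept, with 6761888 to 24163551 UMIs per pool, and 40 barcodes occurred in more than 1 pool. Cells were put into 18 classes by marker scores that contain no member, named below as X-like, and 23.8% of cells fell in no class. The tests ran over 16 of these. The 105 fibroblast-like cells were too few per pool, and the 292 red blood cell-like cells were left out of the fits over classes and are described on their own. No doublet caller was run. Cells whose highest score led the next by too little fell outside the classes. A cell with high but unequal scores for a pair of classes could stay in a class, so mixed cells were not all removed. The median share of mitochondrial UMIs was 3.01% to 4.58% in the mock pools and 4.82% to 7.01% in the morphine pools, so the groups did not overlap in this measure, and its part in the accumbens results was not tested. Nothing in the labels says how the 2 groups were spread over preparation days.

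In the sorted oligodendrocytes, 9 of the 10 members had a lower level after morphine, and 4 passed the test: the ligand gene Vegfa, the receptor genes Kdr and Flt1, and the co-receptor gene Nrp2. None rose. Kdr fell furthest, to 0.375 of its mock mean. The median log2 fold change was -0.48 over the members and -0.02 over all 15759 genes tested. Of all genes tested, 6.67% were called lower and 8.09% higher by edgeR's quasi-likelihood test at an adjusted p under 0.05. In bulk samples such as these, fewer cells of a type and less RNA per cell cannot be told apart.

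Vegfa, the main VEGF ligand (chr17:46016993-46032369, minus strand), was at 33.0, 30.7 and 38.3 CPM in the mock libraries and at 23.8, 23.5 and 24.0 CPM in the morphine libraries. All 3 morphine libraries lay below all 3 mock libraries, and the morphine values spanned little. The log2 fold change was -0.53 (SE 0.085, adjusted p = 8.564e-05, edgeR). Vegfb, the second ligand (chr19:6982473-6987651, minus strand), was at 9.50, 11.1 and 11.0 CPM after saline and at 11.1, 9.53 and 10.2 CPM after morphine. These groups overlapped, and the log2 fold change of -0.05 (SE 0.120, adjusted p = 0.849, edgeR) was smaller than its error.

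Kdr, the gene of VEGFR2 (chr5:75932827-75978458, minus strand), was at 10.4, 10.1 and 7.33 CPM after saline and at 3.28, 3.71 and 3.43 CPM after morphine, from 138 to 222 and from 60 to 81 reads. All 3 morphine libraries were close together and far below the lowest mock library, so the groups did not overlap. The log2 fold change was -1.43 (SE 0.166, adjusted p = 1.415e-06, edgeR). Flt1, the gene of VEGFR1 (chr5:147561604-147726011, minus strand), was at 19.98, 21.5 and 20.9 CPM after saline and at 14.3, 17.3 and 13.3 CPM after morphine. Its mock values lay close together and above every morphine value, with a log2 fold change of -0.49 (SE 0.103, adjusted p = 0.0016, edgeR).

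Nrp2 (chr1:62703285-62818695, plus strand), a co-receptor for VEGF and class 3 semaphorins, was at 13.9, 12.3 and 14.6 CPM after saline and at 9.35, 9.19 and 10.9 CPM after morphine. The groups did not overlap, and the log2 fold change was -0.48 (SE 0.115, adjusted p = 0.0053, edgeR). Nrp1 (chr8:128358604-128503363, plus strand) was at 4.31, 4.32 and 4.25 CPM after saline and at 2.52, 4.26 and 2.67 CPM after morphine. Morphine library 2 sat at the mock level and the other 2 lay well below it. Its log2 fold change of -0.47 (SE 0.211, adjusted p = 0.170, edgeR) did not pass, and without morphine library 2 it was -0.73 (adjusted p = 0.036).

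The Tie receptors and the angiopoietins were low in these cells, and none of these 4 passed the test. Tek, the gene of Tie2 (chr4:94739289-94874976, plus strand), was at 4.63, 4.64 and 3.56 CPM after saline and at 2.52, 3.21 and 3.85 CPM after morphine (log2 fold change -0.42, SE 0.207, adjusted p = 0.217, edgeR). One morphine library lay above the lowest mock library. Tie1 (chr4:118471191-118490061, minus strand) was at 1.26, 1.42 and 1.97 CPM after saline and at 1.09, 1.16 and 1.06 CPM after morphine. All morphine libraries were below all mock libraries, but on 20 to 37 reads each, and the log2 fold change of -0.50 (SE 0.346, adjusted p = 0.420, edgeR) did not pass. Angpt1 (chr15:42424723-42676977, minus strand), which overlaps an exon of Gm17473 on the other strand, was at 2.62, 2.52 and 2.12 CPM after saline and at 1.42, 2.33 and 2.88 CPM after morphine (log2 fold change -0.13, adjusted p = 0.835, edgeR). Angpt2 (chr8:18690263-18741562, minus strand) was at 1.497, 3.55 and 2.34 CPM after saline and at 3.17, 2.27 and 2.84 CPM after morphine (log2 fold change 0.18, adjusted p = 0.773, edgeR). Both angiopoietins overlapped between the groups, and both changed sign when 1 library was left out.

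Without overlap, all morphine libraries lay below all mock libraries for 5 members, namely Vegfa, Kdr, Flt1, Nrp2 and Tie1, and above for none. Of all genes tested, 14.0% had all morphine libraries lower and 15.1% all higher. Per kilobase of exon, the mock level was highest for Vegfa at 7.93 CPM and Vegfb at 6.57 CPM, then Flt1 at 1.54, Nrp2 at 1.146 and Kdr at 1.03 CPM per kilobase. The 2 VEGF ligand genes thus stood above the receptor genes on this length-corrected scale, while the ligand genes Angpt1 at 0.465 and Angpt2 at 0.667 CPM per kilobase lay below Flt1, Nrp2, Kdr and Tek (0.908), and Tie1 was lowest at 0.315 CPM per kilobase. In the authors' deposited table the adjusted p was 0.000137 for Vegfa, 1.838e-09 for Kdr, 0.00628 for Flt1 and 0.0327 for Nrp2, with log2 fold changes of -0.49, -1.26, -0.44 and -0.43. That table gives no other member an adjusted p below 0.412.

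**Figure D1:**
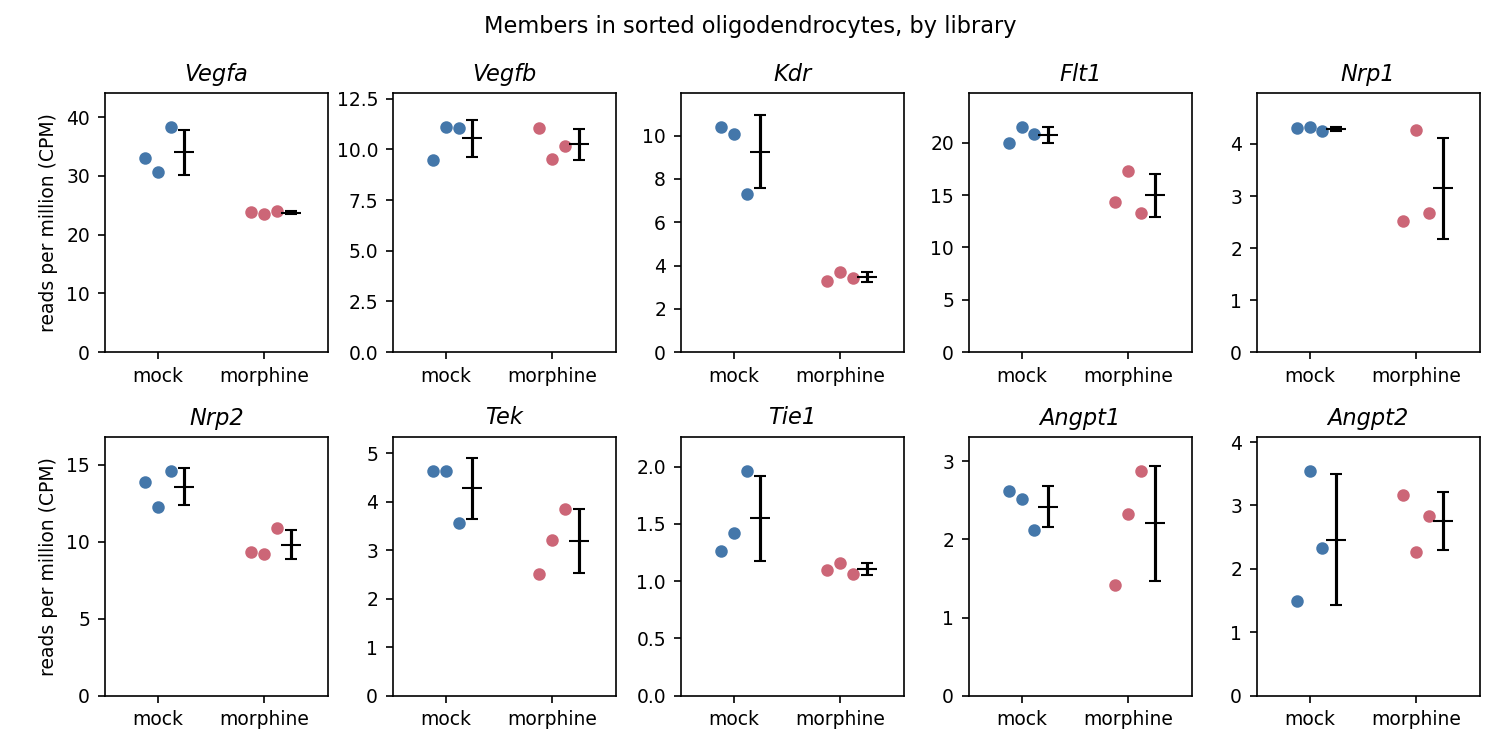
Level of each member in each sorted-oligodendrocyte library, in reads as CPM (y axis from 0), for 3 mock and 3 morphine libraries, with points for libraries and the mean ± SD beside them. The Kdr points sit at 7.33 to 10.4 CPM after saline and 3.28 to 3.71 CPM after morphine, and Vegfa, Flt1, Nrp2 and Tie1 also have every morphine point below every mock point.

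Transcripts of vessel cells were present in the sorted libraries and are given beside the receptor genes because the receptors are known from endothelium. All 15 endothelial markers were found, none at 0, with summed levels of 62.9 to 74.8 CPM after saline and 47.6 to 68.5 CPM after morphine. Of these 15, 3 were called lower (Emcn, Slco1a4 and Itm2a), none higher, and the median log2 fold change of the 15 was -0.40. Beside these and the marker counts below, 6.67% of all genes were called lower and 8.09% higher by edgeR. Cldn5, a defining tight-junction gene, averaged 1.21 CPM after saline and 0.659 CPM after morphine (log2 fold change -0.92, adjusted p = 0.205, edgeR), and Cdh5 averaged 4.16 and 2.65 CPM (adjusted p = 0.0665). Pericyte markers summed to 50.04 to 56.6 CPM after saline and 44.7 to 60.5 CPM after morphine, with none of 7 tested called. Smooth muscle markers summed to 20.9 to 29.6 CPM after saline and 30.6 to 37.8 CPM after morphine, and 2 of 9 were called higher. Astrocyte markers summed to 616 to 771 CPM after saline and 788 to 844 CPM after morphine, and 4 of 12 were called higher and 1 lower. The part of these cells in the fall of Vegfa, Kdr, Flt1 and Nrp2 was not tested.

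Of other genes of the pathway, some were called higher and some lower in the sorted cells. Of all genes tested there, edgeR called 14.8%, with 8.09% higher and 6.67% lower. Of 10 further ligands and receptors, 9 were tested and none was called by edgeR, 1 of them Angptl4, a secreted angiopoietin-like protein, at 0.289 CPM after saline and 0.754 CPM after morphine (log2 fold change 1.35, unadjusted p = 0.0233, adjusted p = 0.120). Of 12 semaphorin-pathway genes, 11 were tested and 1 fell, Plxna1, a plexin that pairs with neuropilins, from 8.502 to 5.56 CPM (log2 fold change -0.62, adjusted p = 0.0043). Of 23 transducers and targets, 18 were tested, 2 rose and 2 fell. The kinase gene Src fell from 22.9 to 13.9 CPM (log2 fold change -0.74) and the receptor gene Notch1 from 14.7 to 7.93 CPM (-0.90). Apln, a vessel peptide gene, rose from 27.8 to 48.7 CPM (0.79) and Notch4 from 2.77 to 4.68 CPM (0.72). The medians of the 3 lists were 0.17, -0.19 and -0.07, around the -0.02 of all genes.

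Of 17 hypoxia-pathway genes, which include known regulators and companions of Vegfa, 16 were tested, 3 rose and 2 fell in the sorted cells, with a median of -0.09. Among all genes tested, 8.09% were called higher and 6.67% lower. Hif3a, a hypoxia-inducible factor subunit, rose most, from 17.1, 5.93 and 14.0 CPM after saline to 90.2, 102 and 97.3 CPM after morphine (log2 fold change 2.92, SE 0.171, adjusted p = 4.936e-11, edgeR). The glucose transporter gene Slc2a1 rose from 208 to 281 CPM and the prolyl hydroxylase gene Egln2 from 21.4 to 31.1 CPM. P4ha1, a collagen prolyl hydroxylase gene, fell from 32.3 to 17.3 CPM and the lipoprotein receptor gene Vldlr from 247 to 192 CPM. Hif1a, the gene of the main factor, averaged 86.1 CPM after saline and 78.6 CPM after morphine (log2 fold change -0.15, adjusted p = 0.132).

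In the accumbens the members were divided among cell classes largely by role, with Kdr, Flt1, Tek and Tie1 highest in endothelial-like cells. Vegfa was highest in astrocyte-like cells, followed by oligodendrocyte precursor-like cells. Both angiopoietins were highest in smooth muscle-like cells, though Angpt1 was also called higher in pericyte-, excitatory neuron- and astrocyte-like cells. Levels below are UMIs as CPM, given as mean ± SD over all mock and morphine pools. In endothelial-like cells (1437 cells), 9 members differed from the mean of the other classes, 7 higher and 2 lower, where 55.3% of 10987 genes differed and 25.3% were called higher. The 7 were Tek (log2 difference 7.65), Flt1 (7.45), Tie1 (6.82), Kdr (6.43), Angpt2 (4.48), Nrp1 (2.58) and Nrp2 (0.93), and the 2 lower ones were Vegfa (-1.36) and Vegfb (-1.53).

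Vegfa was highest in astrocyte-like cells at 196 ± 26.0 CPM (n = 8 pools, 159 to 233) and next in oligodendrocyte precursor-like cells at 146 ± 74.9 CPM. Astrocyte-like cells lay above precursor-like cells in 7 of 8 pools, but the ranges overlapped. The newly formed oligodendrocyte-like cells followed at 52.6 ± 40.9 CPM, and endothelial-like cells were last at 12.2 ± 7.67 CPM. Against the mean of the other classes the log2 difference was 2.96 (SE 0.112, adjusted p = 1.102e-52) in astrocyte-like cells, where 30.6% of genes were called higher, and 2.05 (SE 0.15, adjusted p = 2.471e-25) in precursor-like cells, where 21.5% were. Vegfb was spread more evenly, at 95.8 ± 22.1 CPM in astrocyte-like and 88.8 ± 14.99 CPM in interneuron-like cells, which did not differ beyond their spread, and at 16.8 ± 7.74 CPM in endothelial-like cells.

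Flt1 reached 2884 ± 482 CPM in endothelial-like cells, 93.8 ± 97.1 CPM in pericyte-like cells and 55.6 ± 45.3 CPM in smooth muscle-like cells. At least 1 UMI was seen in 93.4% of the 1437 endothelial-like cells (95% exact binomial interval 92.0% to 94.6%, median 1543 UMIs). The same share was 3.57% of D1 medium spiny neuron-like cells (median 3954 UMIs), a neuron class not known for this gene. Whether these UMIs are free RNA or expression was not tested. Kdr was at 266 ± 102 CPM (152 to 421) in endothelial-like cells and at 25.4 ± 22.2 CPM in pericyte-like cells, with no overlap between the classes. Tek was at 298 ± 71.1 CPM and Tie1 at 188 ± 39.3 CPM in endothelial-like cells, while no other class of the 16 averaged above 10.2 CPM for Tek or 5.79 CPM for Tie1. These classes below the first overlapped one another. Shares of cells cover counting error only.

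The red blood cell-like cells, gated by hemoglobin genes, also held receptor transcripts. Flt1 was at 1020 ± 331 CPM over 8 pools, Tek at 106 ± 80.3, Nrp1 at 90.4 ± 47.7, Kdr at 88.7 ± 49.9 and Tie1 at 48.8 ± 33.6 CPM. For Flt1, Kdr, Tek and Tie1 these means stood next after the endothelial-like ones. A Flt1 UMI was seen in 39.0% of the 292 cells (33.4% to 44.9%). By clusters, 123 of these cells fell with red blood cells and 110 with endothelial cells, and the part of the latter in these levels was not tested. With this class among the fitted ones, an alternative added after the data were seen, the endothelial-like log2 differences were 7.36 for Tek, 7.18 for Flt1, 6.61 for Tie1 and 6.24 for Kdr.

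Nrp1, the semaphorin and VEGF co-receptor, had its highest level outside the vessel lining. Perivascular macrophage-like cells, which sit along vessels, held 566 ± 184 CPM (n = 6 pools, 330 to 802), above endothelial-like cells at 223 ± 68.7 CPM in 6 of 6 pools. The log2 difference of macrophage-like cells from the other classes was 3.59 (SE 0.308), where 6.30% of genes were called higher. This class held 92 cells in all. Pericyte-like (82.8 CPM), smooth muscle-like (73.3), microglia-like (65.5) and excitatory neuron-like cells (61.9) followed and did not differ beyond their spread. Nrp2 was highest in excitatory neuron-like cells at 63.0 ± 14.7 CPM (n = 7 pools), with a log2 difference of 2.03 (SE 0.210). In this class 38.9% of genes were called higher. Its size varied from 6 cells in morphine 3, which was left out, to 528 in mock 4. Neuroblast-, microglia-, interneuron-, precursor- and endothelial-like cells followed, with means from 36.2 down to 29.0 CPM and overlapping ranges.

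Angpt1, the Tie2 activator, was highest in smooth muscle-like cells at 192 ± 115 CPM (96.5 to 387), above pericyte-like cells at 36.5 ± 27.6 CPM in every pool. Pools mock 3 and morphine 3, both of older mice, held 349 and 387 CPM and the other 6 pools 96.5 to 210 CPM. Excitatory neuron-like cells held 28.7 ± 21.9 CPM of Angpt1 (n = 7 pools, log2 difference 2.46, SE 0.239), which overlapped the pericyte-like range. Astrocyte-like cells held 14.9 ± 4.70 CPM (log2 difference 1.515, SE 0.282). Both were called higher by edgeR, where 38.9% and 30.6% of genes were. Angpt2 was also highest in smooth muscle-like cells, at 56.5 ± 19.6 CPM against 26.4 ± 9.58 CPM in endothelial-like cells, higher in 8 of 8 pools though the ranges overlapped. The log2 differences of smooth muscle-like cells were 4.93 (SE 0.269) for Angpt1 and 5.55 (SE 0.351) for Angpt2, where 13.1% of genes were called higher. Pericyte-like and smooth muscle-like cells fell into the same clusters when cells were clustered without the members, so the division between these classes rests on the marker scores.

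**Figure D2:**
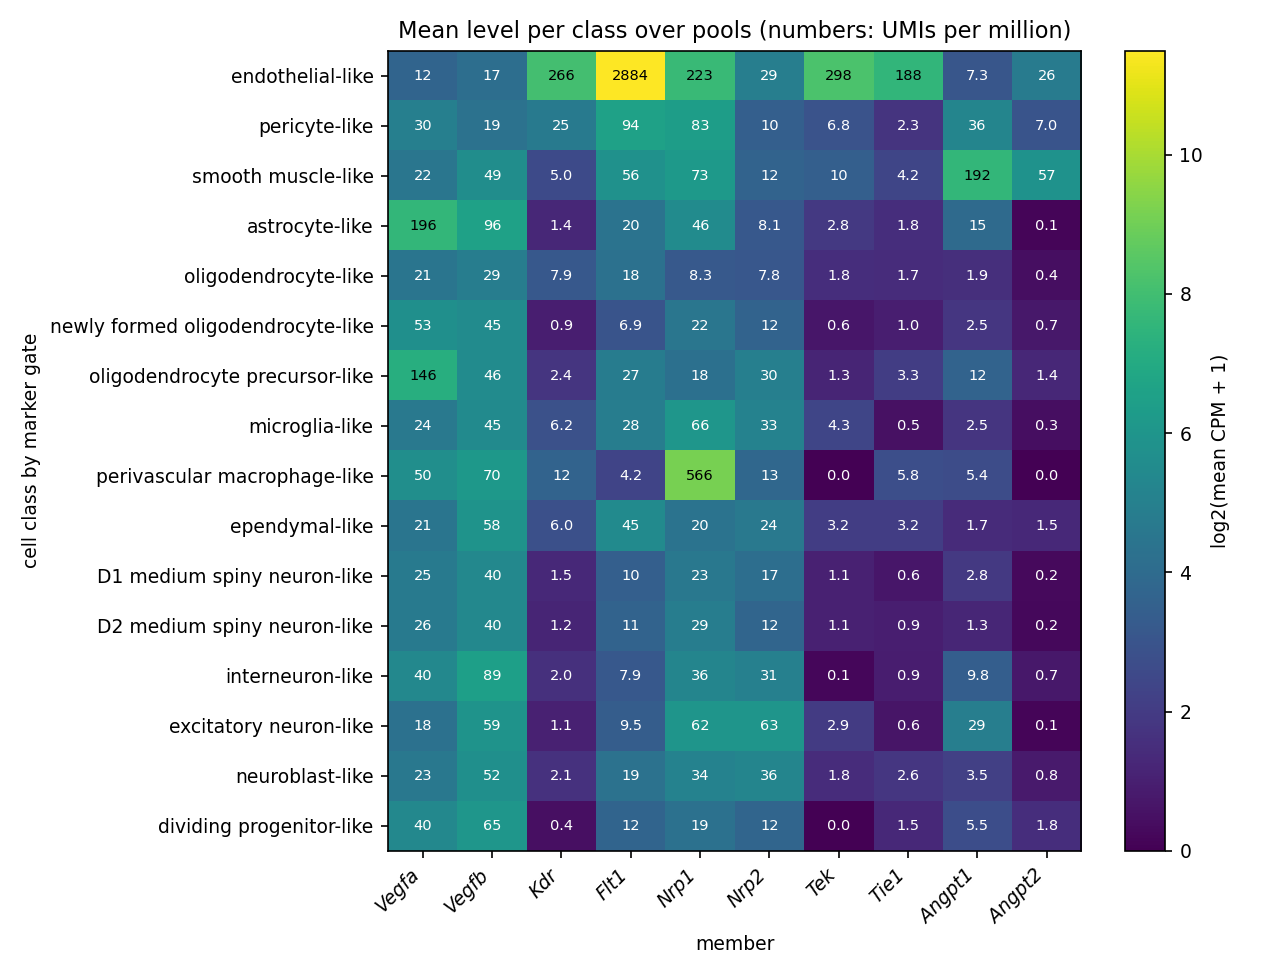
Mean level of each member (x axis) in each of 16 marker-gated cell classes (y axis) over pools, coloured by log2(mean CPM + 1) with the mean CPM written in each cell. Flt1, Kdr, Tek and Tie1 peak in endothelial-like cells, Vegfa in astrocyte-like cells (196), Nrp1 in perivascular macrophage-like cells (566) and both angiopoietins in smooth muscle-like cells.

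Genes whose pattern over the 16 classes was most like that of a member were ranked by Pearson's r of log2(CPM + 1), as a description with no test. Closest to Flt1 were Ly6c1 (r = 0.98) and Gata2 (0.98), closest to Tek were Lsr (0.98) and Gata2 (0.98), and closest to Tie1 were Slc19a3 (0.96) and Erg (0.94). Closest to Kdr were Edn3 (0.93) and Edn1 (0.92), and all of these like genes were highest in endothelial-like cells. Vegfa was closest to Chst2 (0.89), Angpt2 to Lox and Ptgis (0.93 each), and Nrp1 to Mknk2 (0.90). Ly6c1 is itself an endothelial gate marker. The classes share pools and depth, and r over 16 points rests mainly on the class where a gene is high.

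Kdr was also found in oligodendrocyte-like cells of the accumbens, at a low level. There 65 of 4002 cells held a Kdr UMI (1.62%, 95% exact binomial interval 1.26% to 2.07%, median 1916 UMIs), against 20 of 4095 D1 medium spiny neuron-like cells (0.488%, 0.299% to 0.753%, median 3954 UMIs). Ependymal-like cells had a like share (1.88%, 0.758% to 3.83%), and the interval of microglia-like cells (1.01%, 0.522% to 1.75%, median 1276 UMIs) overlapped the oligodendrocyte-like one. In pericyte-like cells the share was 2.82% (1.36% to 5.12%, median 1215 UMIs). Kdr was called higher there too (log2 difference 2.57, SE 0.498, adjusted p = 1.902e-05, edgeR), where 896 of 10987 genes were. The oligodendrocyte-like level was 7.92 ± 2.01 CPM and overlapped that of microglia-like cells (6.24 ± 4.59 CPM), and its log2 difference from the other classes was 1.41 (SE 0.256, adjusted p = 6.722e-07, edgeR), where 28.7% of genes were called higher. The 2 receptor genes were not found there in their endothelial proportion. Kdr gave 76 of the 253 UMIs of Kdr and Flt1 together in oligodendrocyte-like cells (30.04%, 24.5% to 36.1%) and 809 of 10138 in endothelial-like cells (7.98%, 7.46% to 8.52%). In D1 medium spiny neuron-like cells the Kdr share was 11.1% (6.88% to 16.6%), with an interval that overlapped the endothelial one. Pericyte-like (20.5%, 12.2% to 31.2%), interneuron-like (18.5%, 9.25% to 31.4%) and microglia-like cells (18.1%, 9.98% to 28.9%) also lay above the endothelial interval, so a share above it was not particular to oligodendrocyte-like cells.

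UMIs of endothelial markers were more frequent in the oligodendrocyte-like cells with Kdr than in those without. Of the 65 cells with a Kdr UMI, 26 (40%, median 2438 UMIs) also held a UMI of an endothelial marker, against 934 of 3937 cells without one (23.7%, median 1905 UMIs). Depth differed between these cells, and its part in the difference was not tested. Such a UMI was also held by 63.2% of astrocyte-like and 40.05% of D1 medium spiny neuron-like cells without Kdr. Among oligodendrocyte-like cells the share was likewise higher with Flt1 (51 of 132 cells, 38.6%) than without (23.5%), so the difference was not particular to Kdr. Morphine and mock pools overlapped in the Kdr level of this class, with 10.4, 7.82, 7.50 and 6.00 CPM after saline and 11.3, 7.79, 5.45 and 7.14 CPM after morphine. The highest and the lowest pool were both morphine pools, and the log2 fold change was 0.01 with an SE of 0.355 (adjusted p = 0.9994, edgeR). The fall of Kdr in the sorted oligodendrocytes stands beside a value near 0 in the accumbens, but the assays, brain region and ages differ and the difference was not tested.

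**Figure D3:**
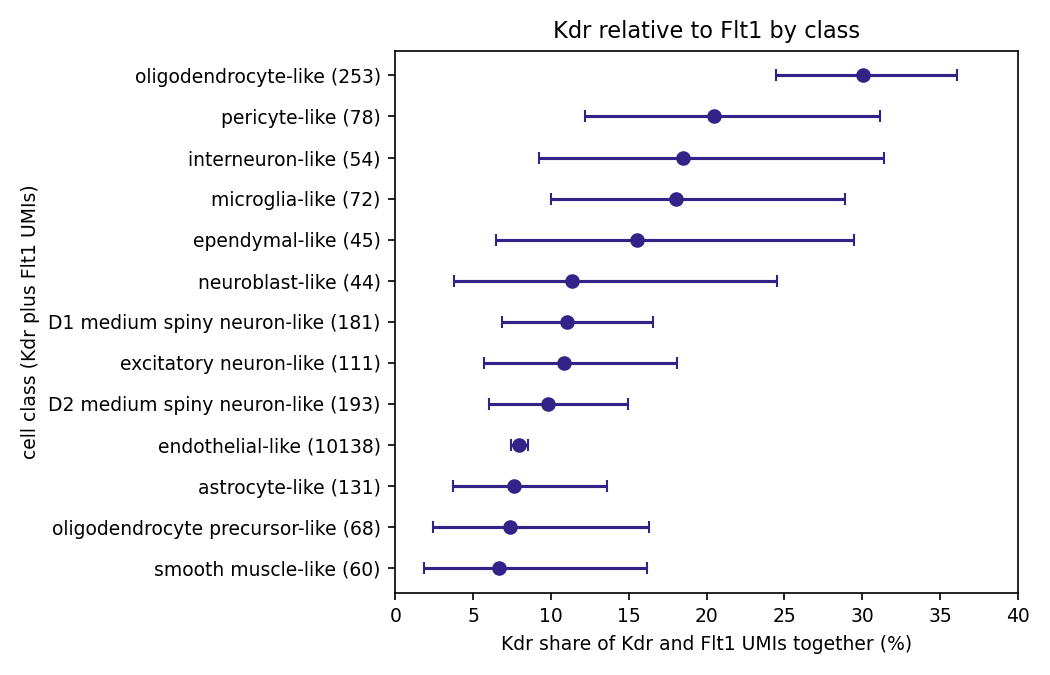
Kdr UMIs as a percent of Kdr and Flt1 UMIs together (x axis) in each cell class (y axis, with the number of UMIs), with 95% exact binomial intervals. The oligodendrocyte-like share of 30.04% lies above the 7.98% of endothelial-like cells, and their intervals do not overlap.

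Against mock, no member passed the test in any accumbens class or over all cells. In 47 tests of members in single classes that passed the filter on low counts, edgeR called 0 and 2 had an unadjusted p under 0.05, and DESeq2 also called 0. In red blood cell-like cells edgeR called 0 of 4 members and 0% of 1871 genes, with 0 members and 71 genes at an unadjusted p under 0.05. Over all cells, edgeR called 0 of 10 members and 0% of 15163 genes, with 1 member and 253 genes at an unadjusted p under 0.05, and DESeq2 called 4 genes, no member among them. In endothelial-like cells edgeR called 0% of 6690 genes, with 229 at an unadjusted p under 0.05. The astrocyte-like and precursor-like fits called 0.0227% and 0.0159% of genes.

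In endothelial-like cells the 7 members tested all had lower means after morphine, with a median log2 fold change of -0.44 against 0.00 over all genes, but none passed. Kdr was at 421, 219, 413 and 245 CPM after saline and at 152, 187, 294 and 203 CPM after morphine. The highest values were mock 1 and mock 3, and the groups overlapped. The log2 fold change was -0.64 (SE 0.264, unadjusted p = 0.0266, adjusted p = 0.9995, edgeR). Tek was at 352, 306, 413 and 298 CPM after saline and at 162, 278, 280 and 295 CPM after morphine, so every morphine pool lay below every mock pool, the 2 nearest values by a small margin. Its log2 fold change was -0.44 (SE 0.211, unadjusted p = 0.0537, adjusted p = 0.9995, edgeR). It was the only 1 of the 7 without overlap, and 1.26% of all genes tested had all morphine pools lower.

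Nrp1 in endothelial-like cells was at 317, 190, 329 and 207 CPM after saline and at 136, 185, 241 and 176 CPM after morphine (log2 fold change -0.50, SE 0.241, adjusted p = 0.9995, edgeR). As for Kdr, mock 1 and mock 3 were highest and the groups overlapped. Flt1 was at 2271, 2963, 3596 and 3033 CPM after saline and at 2298, 2699, 3453 and 2758 CPM after morphine. These values overlapped fully, with a log2 fold change of -0.11 (SE 0.195) that turned to 0.01 without mock 3. Tie1 (-0.19), Nrp2 (-0.35) and Angpt2 (-0.50) also overlapped. Vegfa, Vegfb and Angpt1 fell below the count filter in this class, and without the filter gave -0.45, -0.25 and -0.54 (adjusted p = 0.947, 0.985 and 0.962, edgeR).

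The endothelial-like class itself made up 3.40% to 5.61% of cells in mock pools and 3.65% to 5.90% in morphine pools, and its endothelial markers summed to 24610 to 31040 CPM after saline and 20820 to 30430 CPM after morphine. Its median mitochondrial share was 3.29% to 5.64% in mock and 5.24% to 8.24% in morphine, and pericyte markers in it summed to 57.7 to 315 CPM after saline and 42.9 to 140 CPM after morphine. The part of either in the members' values was not tested.

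**Figure D4:**
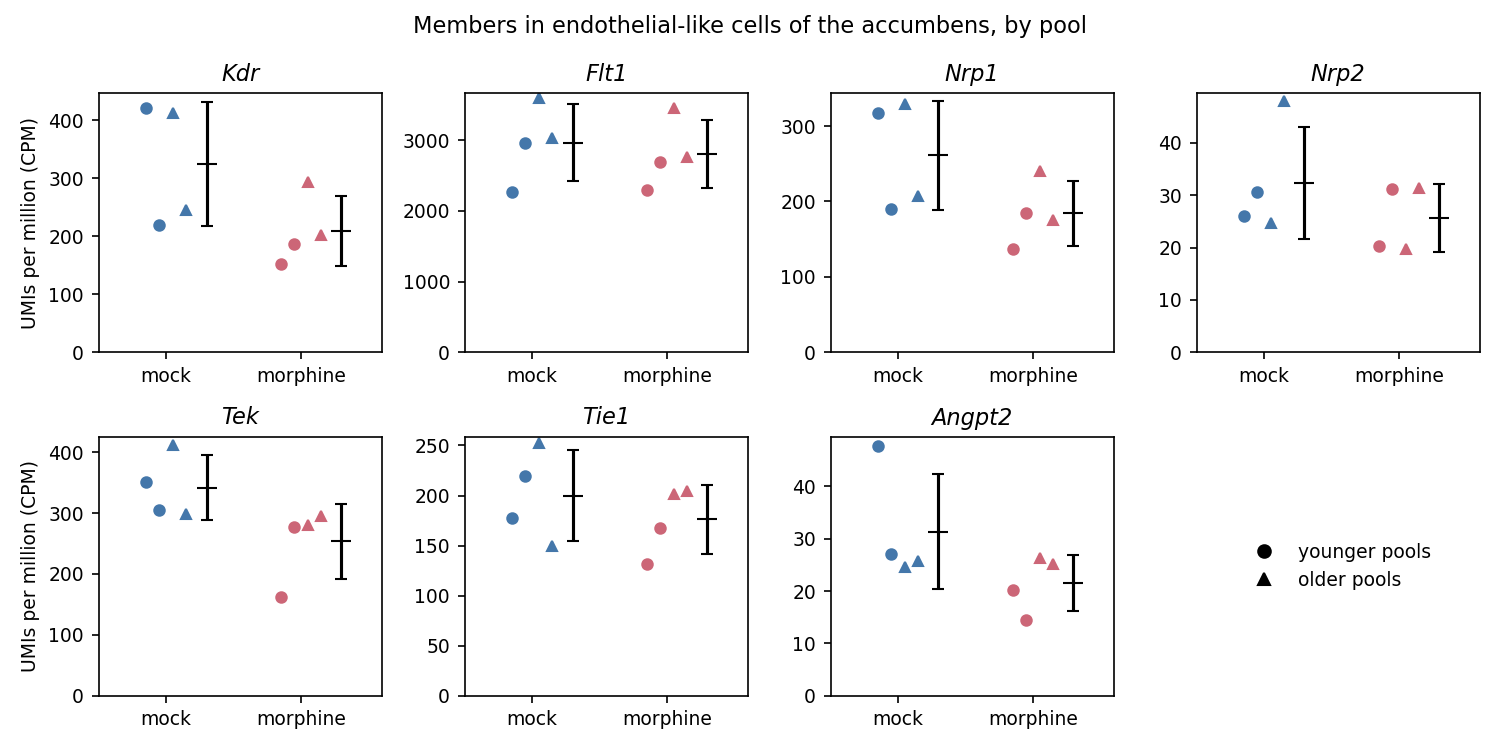
Level of the 7 tested members in endothelial-like cells by pool, in UMIs as CPM (y axis), for 4 mock and 4 morphine pools, with circles for pools of younger and triangles for pools of older mice and the mean ± SD beside them. The Tek points are 298 to 413 in mock and 162 to 295 in morphine, while the Kdr, Nrp1, Flt1, Tie1, Nrp2 and Angpt2 groups overlap.

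Beyond the endothelium, Nrp1 in microglia-like cells had the smallest p of the 47 member tests that passed the count filter. It was at 75.9, 121, 82.5 and 73.2 CPM after saline and at 23.1, 32.5, 63.4 and 52.0 CPM after morphine, from 140 UMIs in all. Every morphine pool was below every mock pool, which held for 0.896% of the 5136 genes tested there. The log2 fold change was -0.98 (SE 0.338, unadjusted p = 0.0105, adjusted p = 0.9995, edgeR). Without the filter, smaller p-values were found on few UMIs, the smallest for Flt1 in smooth muscle-like cells, at 61.7, 134, 76.4 and 85.0 CPM after saline and at 19.1, 6.26, 0 and 62.0 CPM after morphine, from 56 UMIs in all (log2 fold change -1.995, SE 0.580, unadjusted p = 0.000588, adjusted p = 0.473, edgeR). The microglial Nrp1 value was -1.72 in the younger pools alone and -0.49 in the older pools alone. In perivascular macrophage-like cells, the neighbouring class where Nrp1 is high, 6 pools gave 0.32 (SE 0.487).

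The ligand source showed no change that passed. Vegfa in astrocyte-like cells was at 196, 208, 187 and 193 CPM after saline and at 167, 159, 233 and 227 CPM after morphine, with a log2 fold change of 0.00 (SE 0.170). The mock pools lay together, with 2 morphine pools of younger mice below and 2 of older mice above them. In precursor-like cells Vegfa was at 123, 106, 123 and 189 CPM after saline and at 92.8, 91.7, 131 and 316 CPM after morphine (log2 fold change 0.28, SE 0.317). Morphine 4 stood far above the rest, and without it the value was -0.38. In oligodendrocyte-like cells Vegfa gave -0.08 (SE 0.265). Angpt1 in smooth muscle-like cells gave 0.16 (SE 0.492), with wide and overlapping groups.

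Over all accumbens cells, Tek was at 13.6, 14.9, 17.7 and 9.79 CPM after saline and at 7.20, 9.54, 12.6 and 8.09 CPM after morphine (log2 fold change -0.56, SE 0.232, unadjusted p = 0.035, adjusted p = 0.9998, edgeR). The groups overlapped through mock 4. Kdr over all cells gave -0.57 (SE 0.315, adjusted p = 0.9998), with morphine 3 at 15.1 CPM and the other morphine pools at 7.20 to 7.72 CPM. All 15 endothelial markers had a negative log2 fold change over all cells, with a median of -0.21 and none called.

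**Figure D5:**
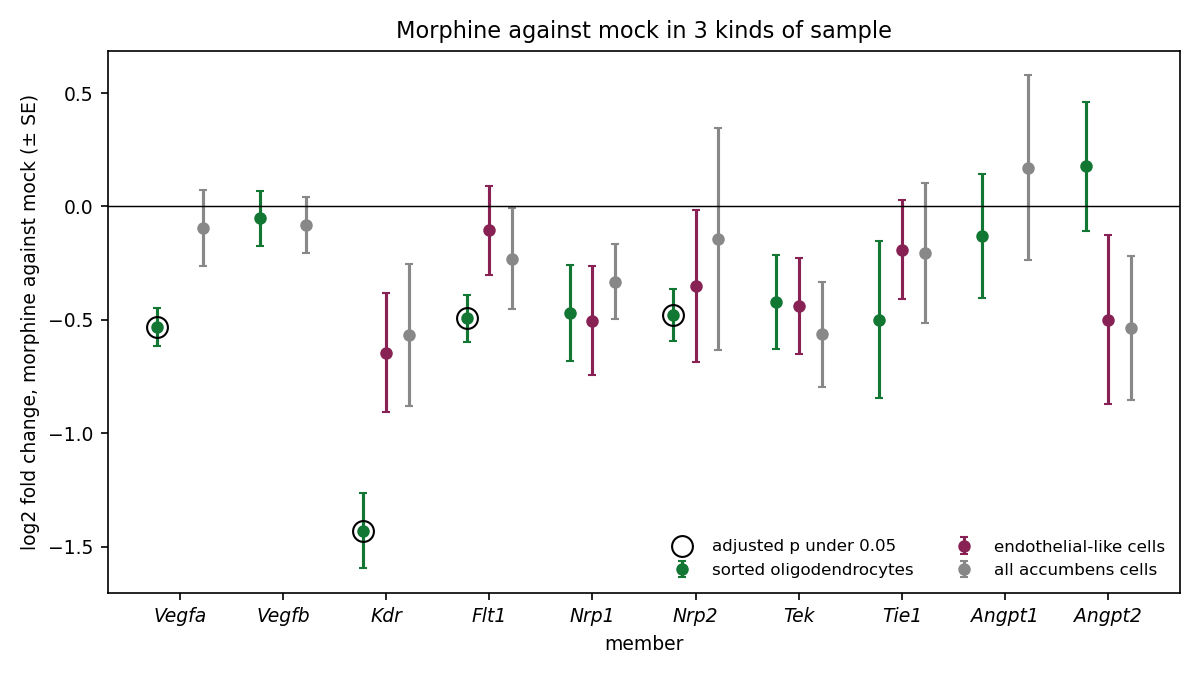
Log2 fold change of each member, morphine against mock, with bars of 1 SE, in sorted oligodendrocytes, in all accumbens cells and in endothelial-like cells of the accumbens, with open rings around values at an adjusted p under 0.05. Vegfa, Kdr, Flt1 and Nrp2 are ringed in the sorted cells, and no accumbens value is ringed.

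The other pathway genes in endothelial-like cells had no calls among the 40 tested by edgeR. Angptl4 was at 8.69, 44.1, 61.6 and 41.1 CPM after saline and at 192, 37.3, 142 and 121 CPM after morphine. Morphine 1, 3 and 4 were above every mock pool and morphine 2 lay within the mock range, with a log2 fold change of 1.497 (SE 0.437, unadjusted p = 0.0034, adjusted p = 0.9995, edgeR). Angptl4 had the same sign in the sorted cells, where it did not pass either. The median over the tested genes was 0.14 for further ligands and receptors (4 of 6 positive), 0.25 for transducers and targets (9 of 15), 0.13 for the hypoxia pathway (9 of 14) and -0.12 for the semaphorin pathway (2 of 5), beside 0.00 over all genes and -0.44 over the members. Slc2a1, which rose in the sorted cells, gave 0.39 (adjusted p = 0.9995), and Ldha, a glycolytic gene, gave -0.57 (unadjusted p = 0.0358).

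Whether the response differed between classes was tested as an interaction in 2 pairs of classes. None of 11 member tests passed by edgeR and none had an unadjusted p under 0.05, where 0.00965% of 10363 genes were called for astrocyte-like against oligodendrocyte-like cells and 0% of 4953 for endothelial-like against pericyte-like cells. The largest difference by p was Nrp1 between astrocyte-like and oligodendrocyte-like cells, at -0.91 (SE 0.475, unadjusted p = 0.0669, edgeR).

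Between pools of older mice (78 to 82 days) and younger mice (37 to 45 days), with treatment in the model, 1 of 57 member tests passed. By the same test, the share of all genes called was 0.598% in endothelial-like, 0.114% in astrocyte-like, 0.794% in precursor-like, 0.506% in microglia-like, 0.613% in perivascular macrophage-like and 0.515% in interneuron-like cells. It was 0% to 0.0512% in the other classes, with red blood cell-like cells (0%) and 0 of their 4 members called, among them D2 medium spiny neuron-like (0.00949%), neuroblast-like (0.0190%) and dividing progenitor-like cells (0.0287%). Nrp1 in interneuron-like cells was at 86.1 and 53.1 CPM in the younger mock pools and 64.6 and 29.5 CPM in the younger morphine pools. In the older pools it was at 19.6 and 14.6 CPM after saline and at 7.49 and 15.5 CPM after morphine, below every younger pool. The log2 difference was -1.90 (SE 0.332, adjusted p = 0.0267, edgeR), where 0.412% of 8736 genes were called lower. The call was lost without mock 1, mock 4, morphine 1 or morphine 4, with adjusted p from 0.0935 to 0.127, and in the mock pools alone (-2.03, adjusted p = 0.0573). Age cannot be told apart from preparation day or library batch here.

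The largest interneuron cluster held 174 of the 191 Nrp1 UMIs of this class, so its values largely repeat those of the class. It made up 60.7% of interneuron-like cells in younger and 49.6% in older pools. There Nrp1 was at 125, 95, 84.7 and 39.0 CPM in the younger pools and at 25.1, 26.1, 10.1 and 18.6 CPM in the older pools, again without overlap. These values rest on 27, 35, 30 and 41 UMIs in the younger pools and on 16, 14, 1 and 10 in the older pools. The single UMI was in morphine 3, which held 13 cells of this cluster. In the next cluster by size Nrp1 was low, with 0 UMIs in younger and 7 in older pools (6.84 CPM). Nrp2 in interneuron-like cells had the same direction (-1.34, adjusted p = 0.0836, edgeR). Vegfa in precursor-like cells was at 122.9, 189, 131 and 316 CPM in the older pools and at 91.7 to 122.8 CPM in the younger pools, so the nearest pools were almost equal, and it did not pass (0.94, adjusted p = 0.0663, edgeR). In endothelial-like cells none of the 7 members passed, while 3 of 15 transducers and targets did, where 0.419% of genes were called higher. Klf4, a flow-responsive transcription factor gene, averaged 362 CPM in younger and 1191 CPM in older pools (1.69, adjusted p = 0.00075), and Klf2 (1.38) and Adamts1 (1.36) rose too.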

How the data were processed

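The members and gene lists were chosen with earlier results of these data known. The submitters' processing notes name Trimmomatic 0.36, STAR 2.4.2a and HTSeq; the genome build is not given in the sources used here. The authors deposited read counts per gene for 6 sorted libraries and UMI counts per gene and barcode for 8 pools, per the file headers. The columns of the sorted table were assigned to the treatment they name. Rows naming no gene held 69.5% to 74.3% of the sorted counts and were left out. The authors' deposited DESeq table of the sorted cells gives a mean signal (normalised count), a log2 fold change, a score (the Wald statistic) and p-values, and was read only for values named as such.

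Older symbols were renamed (2027 in the sorted table, 1573 in the matrices). Kept barcodes had 300 or more genes and 20% or less mitochondrial UMIs. A cell joined the class of highest marker score (0.5 or more, and 0.3 above the next; for red blood cells, 2 or more). The red blood cell class had enough cells to be fitted by the stated rule, but was left out of the fits over classes and fitted apart with the same tests. The UMIs of a class were added up within each pool that held 10 or more of its cells. Genes were tested with edgeR 4.0.16 (TMM, filterByExpr, quasi-likelihood, Benjamini-Hochberg over all genes of a fit) in R 4.3.3. SE is the log2 fold change divided by the square root of F. All 10 members are described, and of each list the 2 to 4 genes of smallest p, or every called one where 6 or fewer were. Alternatives were DESeq2 1.42.0, its size factors, no filter, a replicate block, each library left out, age as a covariate or alone, Leiden clusters (scanpy 1.11.5), a stricter margin, more cells per pool and barcodes without an undetermined base. The sorted libraries carry no UMIs, so PCR copies count as reads, and intervals cover counting error only. Nothing says that each sorted library is 1 mouse, so p-values measure the spread between libraries. The fits were tested on data simulated with the spread that each fit itself had estimated. The changed genes were not drawn from the lowest-expressed genes of a fit, so recovery at the lowest levels was not measured. Of genes lowered by a simulated log2 of -1, the sorted fit called 42 of 50 and the endothelial-like fit 20 of 49. Of genes raised by 1, they called 49 of 50 and 35 of 50. Of unchanged genes, they called 15 of 15156 and 11 of 6150. Changes between 0 and 1 in size were not simulated.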

Additional observations from a re-analysis of the deposited data

Results flagged for a closer look

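In 105 groups of 4 pools, taken per member, class and treatment, 10 values stood apart from the other 3, by Dixon's test of the gap to the nearest one over the group's range. Chance alone gives about 1 in 20 groups. Morphine 3 was high over all cells for Kdr (15.06 CPM, others 7.20 to 7.72) and Tie1 (10.69 CPM, others 5.63 to 6.11), both endothelial receptor genes. In endothelial-like cells, Tek was low in morphine 1 (161.6 CPM, others 278 to 295) and Angpt2 was high in mock 1 (47.77 CPM, others 24.6 to 27.2).

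Nrp2 was high in D1 medium spiny neuron-like cells of mock 3 (48.4 CPM, others 6.88 to 9.96) and morphine 2 (46.61 CPM, others 3.24 to 5.27), and in D2 medium spiny neuron-like cells of morphine 2 (33.54 CPM, others 1.79 to 4.10). The same 2 pools had the highest Nrp2 over all cells, at 36.9 and 47.8 CPM. Vegfb in astrocyte-like cells was high in morphine 1 (141.1 CPM, others 78.8 to 87.1). Vegfa in interneuron-like cells was high in mock 4 (65.0 CPM, others 35.4 to 38.3), and Flt1 in D2 medium spiny neuron-like cells was low in morphine 4 (3.249 CPM, others 12.3 to 13.8).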

How the results depend on the processing

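The 4 members called in the sorted oligodendrocytes were 4 in number under every other size factor, filter and test tried and 4 to 5 with a library left out, and 0 were called in the morphine comparisons of accumbens classes, over all cells and in the interactions under every alternative. The 38 single-gene results had 510 alternatives, of which 476 kept direction and side of the threshold, 5 lost the call, 8 gained it and 21 turned sign. Adding the red blood cell class, chosen after seeing the data, left 0 called by treatment and 1 by age. The age comparison called 1 member, 2 without the treatment covariate, 0 in mock pools alone, 4 without a filter and 0 to 3 with a pool left out. Over all cells DESeq2 called 4 genes higher, and in endothelial-like cells 9 were called higher and 4 lower without a filter. Signs turned for Vegfb (0.007 without morphine 2, lowest -0.121 with a library left out), Angpt1 (0.104 without morphine 1, lowest -0.387) and Angpt2 (-0.087 without mock 1, highest 0.536) in sorted cells, and for Flt1 in endothelial-like cells (0.013 without mock 3, lowest -0.222). Vegfa turned in astrocyte-like cells (0.009 by DESeq2 and with its size factors, 0.001 without a filter, 0.25 in older pools, 0.042 with clusters, 0.015 with a stricter margin, -0.085 to 0.097 with a pool left out), in precursor-like cells (-0.289 in younger pools, -0.377 to 0.531 with a pool left out) and in oligodendrocyte-like cells (0.068 in older pools, 0.122 with clusters, -0.279 to 0.072 with a pool left out); the cause was not tested.

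Same-numbered samples share a number in the column names or titles and, in the accumbens, ages. Their deviations correlated from -0.158 to 0.066 in the sorted libraries, beside -0.16 to 0.192 between other numbers. In the accumbens the values were 0.643 and 0.79 for numbers 1 and 4 and 0.013 and -0.005 for numbers 2 and 3. Other numbers gave -0.538 to 0.425 there. Whether numbers 1 and 4 share a batch was not tested. The labels do not say that numbers pair mice, so the main tests did not take them as pairs. With the replicate block, 4 members were called in the sorted cells, 0 in the accumbens (in endothelial-like cells Kdr -0.57, Nrp1 -0.45 and Tek -0.41, adjusted p = 0.461, 0.592 and 0.642, edgeR), and 2 genes higher in endothelial-like cells. Depth limits the low members: Tie1 rests on 20 to 37 reads per sorted library and Nrp1 in microglia-like cells on 140 UMIs, and members under the count filter were tested only without it.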
